A study of Bos taurus with 12 samples.

Results

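The enzymes that make tRNAs ready for translation were followed in bovine oocytes through 57 genes, aminoacyl-tRNA synthetases and enzymes that process or modify tRNAs. Members were taken by symbol from the array annotation. They were synthetases of the cytosol (symbols ending in ARS1, with EPRS1) and of mitochondria (symbols ending in ARS2), the TRMT, NSUN, PUS, ELP, ADAT and TSEN families, and TRMU and TRNT1. They made up 57 of the 9155 genes that had a probe set with a single symbol. A gene with several probe sets was represented by the one with the highest mean over the 12 arrays. A filter on low signals, a mean above 5.57 log2 units over the 12 arrays, kept 47 of the 57 members and 6842 of the 9155 genes.

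A synthetase joins an amino acid to the tRNAs that read its codons, and the cytosol and the mitochondria mostly use separate sets of these enzymes. Several cytosolic synthetases are held together in the multisynthetase complex. Before it is charged, a tRNA loses an intron where it has one (TSEN endonuclease), receives its CCA end (TRNT1), and carries bases changed by methyltransferases (TRMT and NSUN families), pseudouridine synthases (PUS), the Elongator complex (ELP) and sulfur-adding enzymes such as TRMU. The fully grown oocyte makes little new mRNA while it completes meiosis and draws on stored messages, which are translated, gain or lose their poly(A) tail, and are degraded.

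The study compared donor age and meiotic stage in Japanese Black cattle with 3 arrays in each of 4 groups. MII oocytes of prepubertal heifers and of adult cows had been matured in vitro for 20 to 22 h and carried a polar body. GV oocytes of prepubertal heifers and of adult cows were taken without culture. The heifers were 9 to 12 months old and their ovaries came from farms, whereas the cows' ovaries came from an abattoir, so age and source cannot be told apart. No age is given for the cows. In all groups the oocytes came from follicles of 2 to 8 mm, were stripped of cumulus cells with hyaluronidase and were pooled by 50 per array, and the RNA was amplified before labelling. The titles call the pools biological replicates and name no animal or day, so the p-values measure the spread between these pools. At both ages GV replicates 1 and 2 carry a letter b in their titles, which no MII array carries and which nothing explains.

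Signals are on a log2 scale, as deposited, and were scaled so that every array had the same trimmed mean. They say how a gene differs between arrays and not which of 2 genes is more abundant, nor how much mRNA an oocyte held. In pooled RNA, fewer cells of a type and less RNA per cell cannot be told apart. Array medians ran from 5.64 to 8.30, and centring each array on its median would raise every MII minus GV difference over 12 arrays by 0.78 in adults and 0.91 in prepubertal donors. Over the 9 arrays described next it would raise them by 0.10 and 0.80.

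Of the 12 arrays, 9 carried the oocyte profile that their labels imply and 3 did not. The 3 were the first replicates of MII prepubertal, GV prepubertal and GV adult oocytes. Relative to the median of its array, the median of 9 oocyte marker genes stood at 0.03, -0.55 and 0.89 log2 units in these 3, and at 6.06 to 8.70 in the 9. Of 20 cumulus and granulosa markers, 16, 19 and 16 were higher in the 3, in the same order, than their mean in the 9. Their summed log2 signals were 186.34, 195.23 and 163.96 in the 3 arrays and 94.86 to 130.94 in the 9. Relative to the array median, as for the oocyte list, the median cumulus and granulosa marker stood at 1.96 and 1.76 in the prepubertal MII and GV arrays, above the -2.08 to 0.12 of the 9, but at 0.01 in GV adult replicate 1, within that range. The median of 10 theca and stroma markers stood at 2.77, 1.07 and 0.20 in the 3 and at -1.19 to 0.14 in the 9. That of 8 blood markers stood at -0.39, -0.75 and -0.45, within the -2.20 to -0.20 of the 9. GV adult replicate 1 had the highest array median, 8.30, and 8 of the 10 theca and stroma and all 8 blood markers had a higher signal there than their mean in the 9. The counts are therefore given over the 12 arrays and over the 9, and each gene's difference names its arrays, in which a prepubertal group holds 2 arrays, adult GV 2 and adult MII 3. MII adult replicate 3 correlated at most at 0.55 (Spearman, across probe sets) with any other array, and GV adult replicate 1 at most at 0.14. In MII adult replicate 3, 26 of the 47 kept members lay above the array's median, against 38 and 41 in the other MII adult arrays.

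Adult maturation over the 9 arrays was the comparison with a member past the adjusted test, and that member was RARS1, the cytosolic arginyl-tRNA synthetase. In MII oocytes RARS1 read 11.32, 12.12 and 12.43 in prepubertal and 11.75, 11.39 and 12.06 in adult pools. In GV oocytes it read 12.46, 15.04 and 14.64 in prepubertal and 10.33, 15.28 and 14.36 in adult pools. The 2 low GV values, 12.46 and 10.33, were those of the GV arrays without an oocyte profile, and the 4 other GV arrays lay above every MII array.

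In the arrays with an oocyte profile RARS1 averaged 11.73 ± 0.34 in adult MII (SD, n = 3) and 14.82 ± 0.65 in adult GV oocytes (SD, n = 2). It fell by 3.09 log2 units (SE 0.49, 95% interval -4.13 to -2.04), or 8.49-fold, with an adjusted p of 0.0215 in limma over 14409 probe sets. In prepubertal donors RARS1 averaged 12.27 ± 0.22 at MII and 14.84 ± 0.28 at GV (SD, n = 2 each). The difference there was -2.57 (SE 0.54), with an unadjusted p of 0.000256 and an adjusted p of 0.536. The maturation differences of the 2 ages differed by 0.52 (SE 0.73, interval -1.03 to 2.07; interaction adjusted p 0.999). Over all 12 arrays, with the 3 arrays of low oocyte signal included, the RARS1 difference was -1.59 (SE 1.34, adjusted p 0.724) in adults and -2.09 (SE 1.34, unadjusted p 0.134, adjusted p 0.999) in prepubertal donors. Deviations of same-numbered prepubertal arrays correlated positively, most between the replicates 1, which both lacked the oocyte profile. No label pairs these arrays, so pairs by number are given as an alternative only. RARS1 was lower at MII in each of the 3 pairs, by -1.14, -2.92 and -2.21, the first being the pair of arrays without an oocyte profile. With the pairs as a replicate block over these 6 arrays the difference was -2.09 (SE 0.48, unadjusted p 0.000347), and its adjusted p of 0.275 did not pass. The limma fit of the same 6 arrays without the block gave an unadjusted p of 0.0326.

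The summed cumulus and granulosa signals in the 9 arrays were 104.53 to 130.94 at MII and 94.86 to 129.90 at GV, which overlap, and their part in the RARS1 difference was not tested.

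The call on RARS1 in adults rests on few arrays. When each of the 9 arrays was left out in turn, the difference stayed between -3.54 and -2.63, but the adjusted p stayed under 0.05 only without MII adult replicate 2 (0.0466) or MII adult replicate 3 (0.01). It was 0.0514 without GV adult replicate 3 and 0.103 without GV adult replicate 2. Without MII adult replicate 1 it was 0.0773. Without an array of another group the difference was the same and the adjusted p was 0.075 (GV prepubertal replicate 2), 0.0694 (GV prepubertal replicate 3), 0.0639 (MII prepubertal replicate 2) and 0.0617 (MII prepubertal replicate 3). Centring the 9 arrays on their medians gave -2.98 with an adjusted p of 0.289 in adults. The letter b stood on 1 of the 2 GV arrays with an oocyte profile at each age, and the GV arrays with and without it both lay above the MII arrays.

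**Figure D1:**
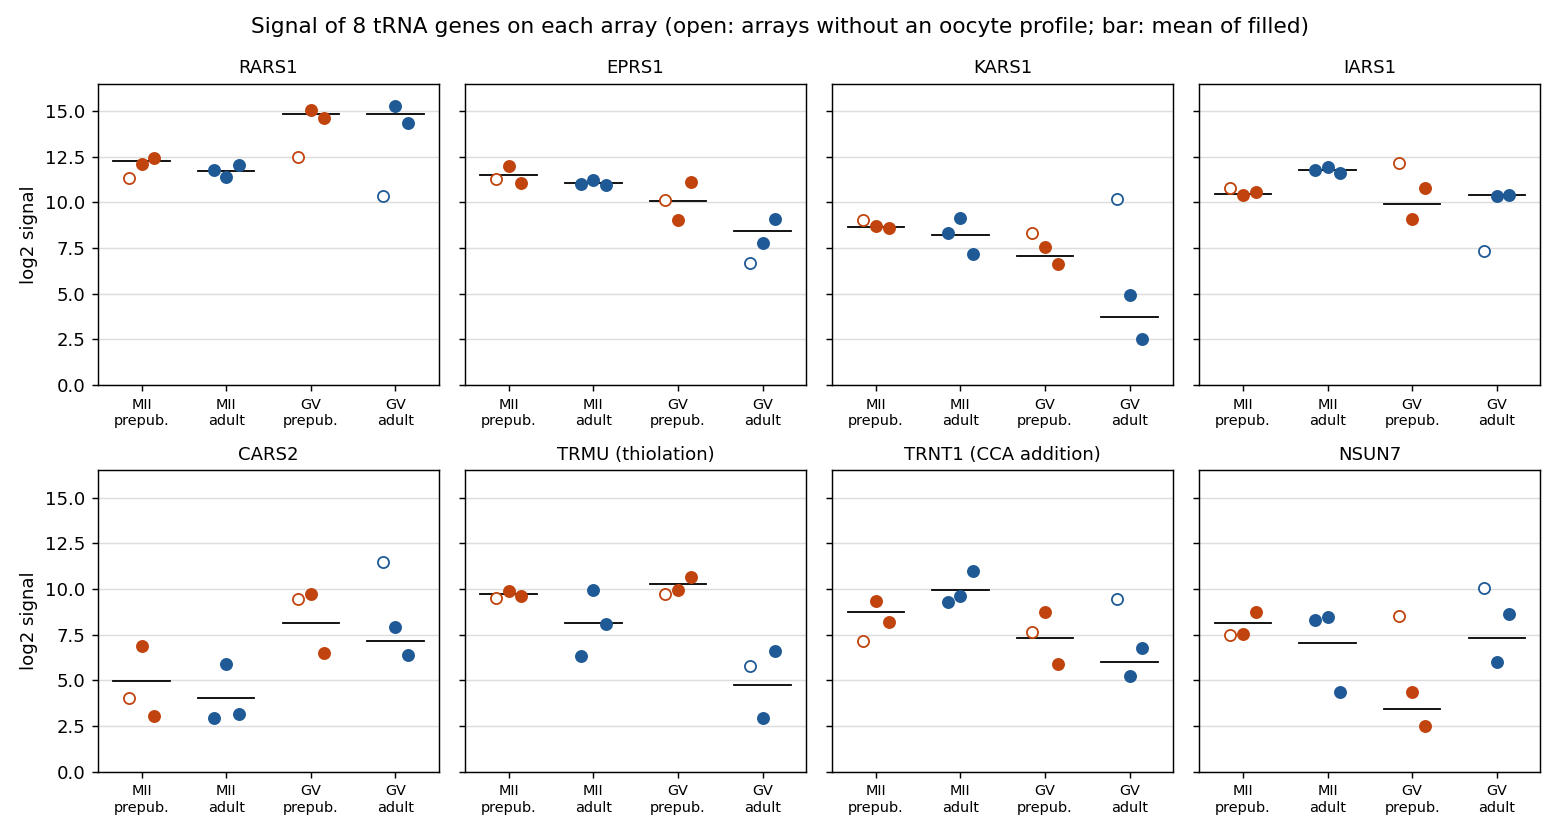
Log2 signal of 8 members on each array, by group (left to right MII prepubertal, MII adult, GV prepubertal, GV adult). Points are arrays, open where the oocyte profile was missing, and bars are means of the filled points. The filled GV points of RARS1 lie between 14.36 and 15.28 and its MII points between 11.32 and 12.43.

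RARS1 has a second probe set. It read 10.82 and 10.61 at MII and 11.56 and 13.01 at GV in the prepubertal pools with an oocyte profile. In adult pools it read 10.72, 10.38 and 8.36 at MII and 10.95 and 12.38 at GV. All GV values lay above all MII values at both ages, and in adults the nearest were 10.95 and 10.72. Its difference over the 9 arrays was -1.85 (SE 0.90, adjusted p 0.469) in adults and -1.57 (SE 0.99, unadjusted p 0.134) in prepubertal donors, so the direction was that of the first probe set and the size smaller.

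Over the 9 arrays RARS1 also varied least between pools of a group. Over 12 arrays it did not, with a residual SD of 1.52 against a members' median of 1.99. Its residual SD over the 9 arrays, 0.39 log2 units, was the smallest of the 47 kept members, whose median was 1.64. Among all kept probe sets, with a median of 1.50, 2.43% had a smaller one. Most other members therefore had wide intervals: over the 9 arrays the median SE of a member's difference was 1.44 in the adult maturation comparison.

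Among cytosolic synthetases, EPRS1, KARS1 and IARS1 stood higher at MII than at GV in adult oocytes, without passing the adjusted test. EPRS1 charges tRNAs with glutamate and proline. It read 11.00, 11.25 and 10.93 in adult MII pools and 6.70, 7.79 and 9.08 in adult GV pools. In prepubertal pools it read 11.30, 11.97 and 11.05 at MII and 10.14, 9.01 and 11.14 at GV. The adult stages did not overlap and the prepubertal stages did. The adult difference was 3.21 over 12 arrays (SE 1.05, unadjusted p 0.00654, adjusted p 0.563) and 2.63 over 9 (SE 0.92, unadjusted p 0.0123, adjusted p 0.276). In prepubertal donors it was 1.34 (SE 1.05) over 12 arrays and 1.44 (SE 1.01) over 9, and the interaction was -1.86 (SE 1.49, unadjusted p 0.225) over 12 and -1.19 (SE 1.37) over 9.

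KARS1, which charges lysine tRNAs in the cytosol and in mitochondria, read 8.33, 9.16 and 7.15 in adult MII pools and 10.16, 4.92 and 2.51 in adult GV pools. The high GV value was that of the array without an oocyte profile, and the other GV values lay under every MII value. The adult difference was 4.50 (SE 1.33, unadjusted p 0.00431, adjusted p 0.186) over the 9 arrays, against 2.35 (SE 1.57) over 12. In prepubertal pools KARS1 read 9.05, 8.71 and 8.62 at MII and 8.33, 7.57 and 6.61 at GV, which did not overlap. That difference was 1.57 (SE 1.46, unadjusted p 0.300) over the 9 arrays and 1.29 (SE 1.57) over 12.

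IARS1, the isoleucyl-tRNA synthetase of the multisynthetase complex, read 11.79, 11.96 and 11.62 in adult MII pools and 7.32, 10.34 and 10.43 in adult GV pools. The MII values lay close together and above all GV values. The adult difference was 2.43 over 12 arrays (SE 1.14, unadjusted p 0.0464, adjusted p 0.619) and 1.40 over 9 (SE 0.80, unadjusted p 0.101). In prepubertal pools IARS1 read 10.77, 10.38 and 10.56 at MII and 12.14, 9.07 and 10.79 at GV, and the stages overlapped.

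AARS1, which charges alanine tRNAs, ran the other way in the prepubertal pools with an oocyte profile. It read 7.72, 1.87 and 2.12 in prepubertal MII pools and 7.54, 5.20 and 6.89 in prepubertal GV pools. The high MII value was that of replicate 1, which lacked the oocyte profile, and the other MII values were low on the scale. The AARS1 mean was 5.84 over 12 arrays but 5.43 over the 9, under the filter of 5.57. In adult pools AARS1 read 4.48, 5.87 and 6.34 at MII and 5.92, 9.47 and 6.64 at GV. The maturation difference over the 9 arrays was -4.05 in prepubertal donors (SE 1.71, unadjusted p 0.0323, adjusted p 0.682) and -2.49 in adults (SE 1.57, unadjusted p 0.133). Over 12 arrays it was -2.64 (SE 1.70) in prepubertal donors and -1.78 (SE 1.70) in adults.

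The 14 kept cytosolic synthetases did not move as a block with maturation. In adults over the 9 arrays 8 were higher at MII and 6 lower, with differences from -3.64 to 4.50 and a median of 0.30. In prepubertal donors 6 were higher and 8 lower, with a median of -0.23. The multisynthetase complex held members on both sides, with RARS1 among the lower and EPRS1 and KARS1 among the higher at MII. Of its 7 kept subunits 3 were higher and 4 lower at MII in adults over the 9 arrays. Synthetases of class I and class II, the structural classes of these enzymes, had median adult differences of -0.60 (13 genes) and 0.02 (11 genes). These splits depend on MII adult replicate 3. Without it both class medians were positive, and more subunits of the complex stood higher than lower at MII in adults.

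**Figure D2:**
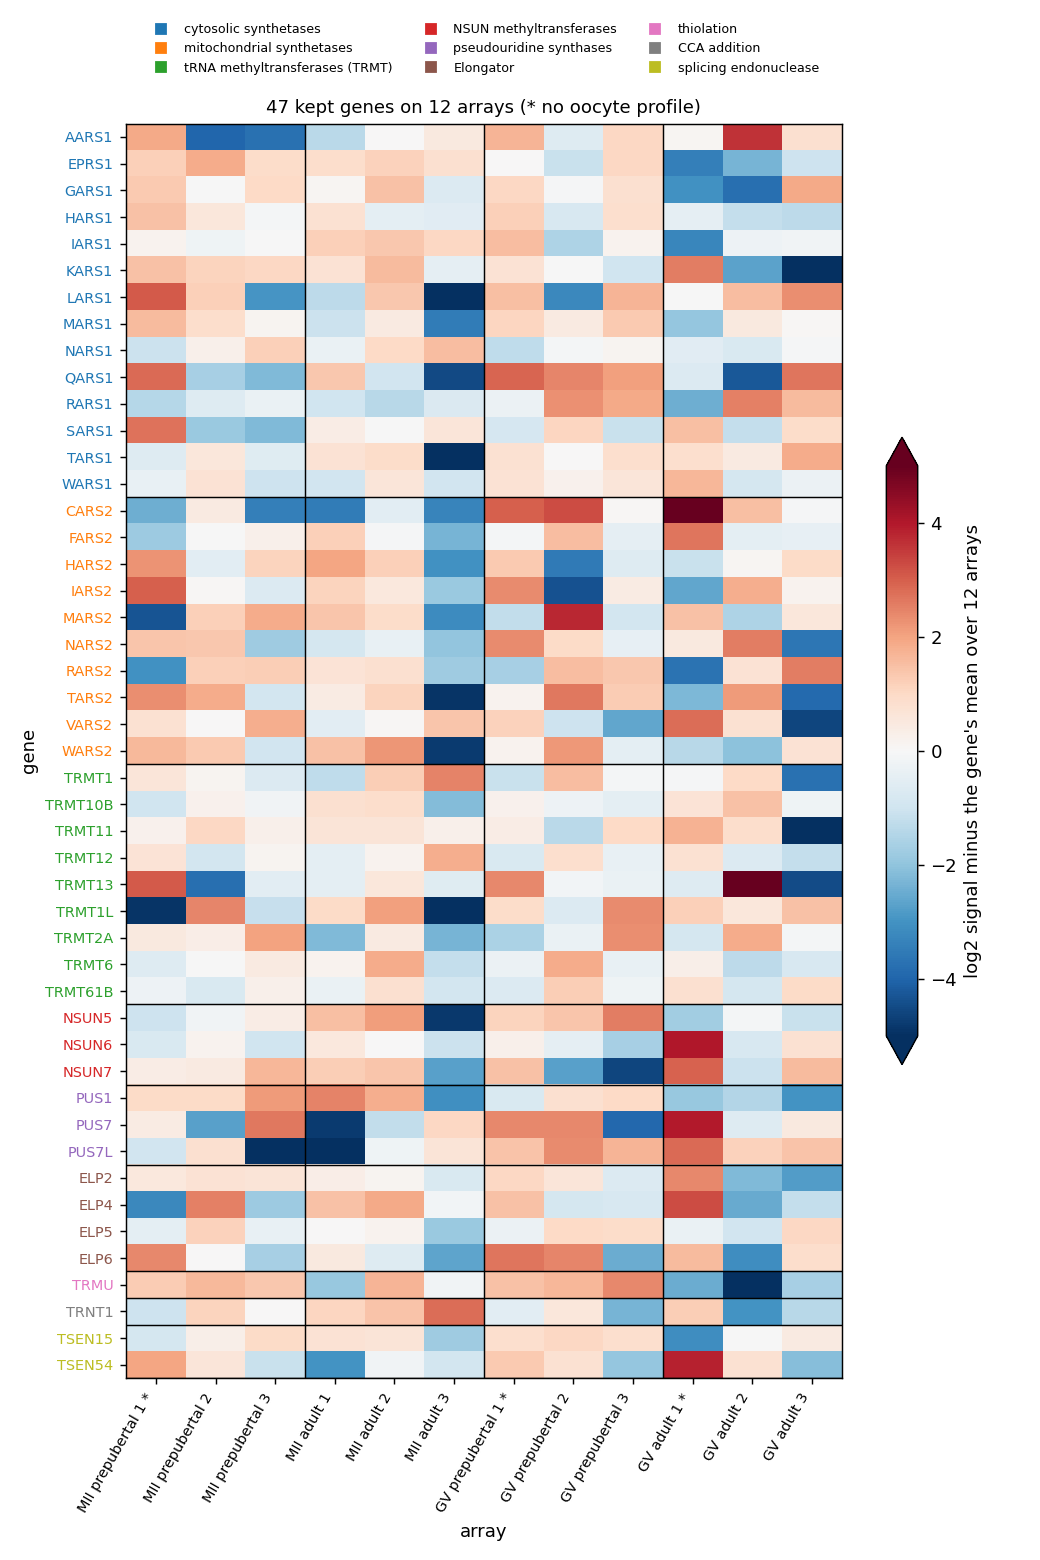
Log2 signal minus the gene's own mean over 12 arrays for the 47 kept members (rows, coloured by role) on each array (columns, MII before GV and prepubertal before adult). Asterisks mark the 3 arrays without an oocyte profile; in GV adult replicate 1 and in MII adult replicate 3, 26 of the 47 members lie above the array's median.

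The mitochondrial synthetases were led by CARS2, which charges mitochondrial cysteine tRNAs. It read 4.02, 6.90 and 3.04 in prepubertal MII pools and 9.47, 9.71 and 6.53 in prepubertal GV pools. In adult pools it read 2.96, 5.92 and 3.17 at MII and 11.51, 7.95 and 6.39 at GV. The adult stages did not overlap, while the lowest prepubertal GV pool lay under the highest MII pool. Over 12 arrays the MII minus GV difference was -4.60 in adults (SE 1.66, unadjusted p 0.0121, adjusted p 0.563) and -3.92 in prepubertal donors (SE 1.66, unadjusted p 0.0293, adjusted p 0.999). With the 9 arrays it was -3.16 (SE 1.72, unadjusted p 0.0862) and -3.15 (SE 1.88, unadjusted p 0.115).

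The second CARS2 probe set gave an adult difference of -4.07 over 12 arrays (unadjusted p 0.0107) and -3.30 over 9 (unadjusted p 0.0509). Both probe sets of CARS2 thus stood lower at MII in adults. Of the 10 kept mitochondrial synthetases, 4 were higher and 6 lower at MII over the 9 arrays, in adults (median -0.36) and in prepubertal donors (median -0.32). The adult split depends on MII adult replicate 3, where HARS2 read 3.21 and TARS2 2.73. Without that array both turned to higher at MII in adults.

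TRMU, which adds sulfur to the wobble uridine of some mitochondrial tRNAs, had the largest age difference of the 47 at GV. It read 9.74, 9.93 and 10.66 in prepubertal GV pools and 5.78, 2.96 and 6.59 in adult GV pools. All prepubertal values lay above all adult values, also without the arrays that lacked an oocyte profile. TRMU averaged 10.11 ± 0.49 in the prepubertal pools and 5.11 ± 1.91 in the adult pools (SD, n = 3 each). The difference was 5.00 (SE 1.27, 95% interval 2.34 to 7.65; unadjusted p 0.000868, adjusted p 1). With the 9 arrays it was 5.52 (SE 1.53, unadjusted p 0.00261, adjusted p 0.997).

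The ages overlapped at MII, where TRMU read 9.54, 9.89 and 9.62 in pools of prepubertal and 6.35, 9.96 and 8.08 in pools of adult donors. The difference there was 1.55 over 12 arrays (SE 1.27, unadjusted p 0.236). In adults TRMU was 3.02 higher at MII than at GV over 12 arrays (SE 1.27, unadjusted p 0.0279, adjusted p 0.595) and 3.35 higher over 9 (SE 1.39, unadjusted p 0.0297, adjusted p 0.369). In prepubertal donors the difference was -0.43 over 12 arrays (SE 1.27) and -0.54 over 9 (SE 1.53). The interaction was -3.45 (SE 1.79, unadjusted p 0.0698) over 12 arrays and -3.90 (SE 2.07, unadjusted p 0.0793) over 9.

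The second TRMU probe set gave other values. It read 9.58, 7.87 and 7.79 in prepubertal GV pools and 11.17, 7.17 and 7.71 in adult GV pools, which overlapped, and the difference over 12 arrays was -0.27 (unadjusted p 0.861). The value of 11.17 was that of the array without an oocyte profile. Among the arrays with one, the prepubertal values of 7.87 and 7.79 lay above the adult values of 7.17 and 7.71, and the difference was 0.39 (SE 1.66, unadjusted p 0.818), against 5.52 for the first probe set. Its adult MII minus GV difference was -2.84 over 12 arrays (unadjusted p 0.0780) and -1.60 over 9 (SE 1.51, unadjusted p 0.309), against the direction of the first. With the mean of both probe sets, over 12 arrays, the age difference at GV was 2.36 (unadjusted p 0.0794) and the adult maturation difference 0.09. What sets the probe sets apart was not tested, and the sources used here do not say which transcripts they read.

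**Figure D3:**
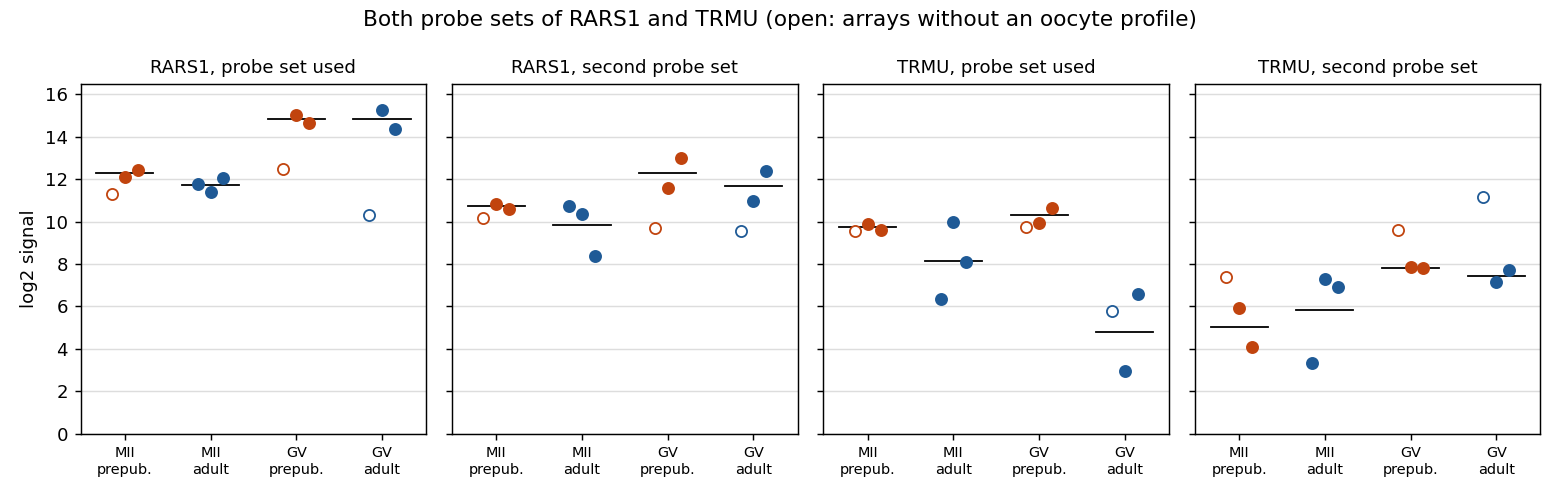
Log2 signal of both probe sets of RARS1 and of TRMU on each array, by group, with open points for arrays without an oocyte profile and bars for the mean of the filled points. The filled GV points of both RARS1 probe sets lie above their filled MII points at both ages, while the low adult GV values of TRMU, from 2.96 to 6.59, appear in the first TRMU probe set and not in the second, at 7.17 to 11.17.

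TRNT1 adds the CCA end to which amino acids are joined. It read 9.27, 9.63 and 10.99 in adult MII pools and 9.44, 5.23 and 6.80 in adult GV pools. In prepubertal pools it read 7.18, 9.33 and 8.21 at MII and 7.67, 8.76 and 5.89 at GV. Without the high GV adult replicate 1, the adult stages did not overlap. The adult difference was 3.95 over the 9 arrays (SE 1.27, unadjusted p 0.00726, adjusted p 0.220) and 2.81 over 12 (SE 1.31, unadjusted p 0.0455, adjusted p 0.619). In prepubertal donors it was 1.45 (SE 1.39) over the 9 arrays and 0.80 (SE 1.31) over 12.

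Elongator, which starts the side chain of many wobble uridines, had 4 kept subunits. ELP2, a scaffold subunit of the complex, read 9.20, 9.02 and 8.12 in adult MII pools and 11.27, 6.68 and 6.09 in adult GV pools, the first GV value being that of the array without an oocyte profile. Its adult difference over the 9 arrays was 2.40 (SE 1.10, unadjusted p 0.0468, adjusted p 0.426), against 0.77 (SE 1.28) over 12. A second ELP2 probe set gave -0.59 (SE 2.31) over the 9 arrays. ELP4 differed by 2.94 in adults over the 9 arrays (SE 1.43, unadjusted p 0.0585), with 9.18, 9.62 and 7.60 at MII and 5.20 and 6.52 at GV, and by 1.23 (SE 1.65) over 12. ELP5 differed by -0.60 (SE 1.04) and ELP6 by 0.18 (SE 1.78) over the 9 arrays, and by -0.47 (SE 1.08) and -0.72 (SE 1.71) over 12.

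Between ages at GV, all 4 Elongator subunits, by the probe sets used, were higher in prepubertal than in adult pools. The differences were 0.92 to 2.45 over the 9 arrays, and none had an unadjusted p under 0.05. ELP2 came nearest at 0.0614, with 2.45. Its second probe set differed by -0.19 (SE 2.53, unadjusted p 0.942) over the 9 arrays and by 0.69 over 12. Over 12 arrays the 4 differences were 0.10 to 1.17.

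NSUN7, of the family of RNA cytosine methyltransferases, read 7.47, 7.53 and 8.73 in prepubertal MII pools and 8.55, 4.38 and 2.50 in prepubertal GV pools. The high GV value was that of the array without an oocyte profile. Its prepubertal MII minus GV difference over the 9 arrays was 4.69 (SE 1.75, unadjusted p 0.0175, adjusted p 0.681), and over 12 it was 2.77 (SE 1.67, unadjusted p 0.114). Without GV prepubertal replicate 3 the 12-array value was 1.45, and without GV prepubertal replicate 1, 4.47. In adult pools NSUN7 read 8.32, 8.47 and 4.39 at MII and 10.04, 6.03 and 8.66 at GV, and the difference was -0.28 (SE 1.60) over the 9 arrays and -1.18 (SE 1.67) over 12. The interaction was 4.97 (SE 2.37, unadjusted p 0.0539) over the 9 arrays and 3.95 (SE 2.36, unadjusted p 0.111) over 12. At GV, NSUN7 was lower in prepubertal than in adult pools, with a difference of -3.90 over the 9 arrays (SE 1.75, unadjusted p 0.0420, adjusted p 1) and of -3.10 over 12 (SE 1.67, unadjusted p 0.0791).

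NSUN5, known for a methylation of ribosomal RNA and brought in by the symbol rule, read 8.46, 8.72 and 9.90 in prepubertal GV pools and 5.60, 7.24 and 6.21 in adult GV pools. The ages did not overlap, and the difference was 2.68 over 12 arrays (SE 1.58, unadjusted p 0.107) and 2.58 over 9 (SE 1.93). In prepubertal MII pools it read 6.29, 7.15 and 7.72, below all prepubertal GV pools, a difference of -1.97 over 12 arrays (SE 1.58, unadjusted p 0.228) and -1.87 over 9 (SE 1.93). NSUN6, which methylates a cytosine near the 3′ end of some tRNAs, read 6.60, 5.89 and 4.66 in prepubertal GV pools and 10.36, 5.53 and 7.10 in adult GV pools, which overlapped. Its age difference there was -1.95 over 12 arrays (SE 1.48, unadjusted p 0.203) and -1.04 over 9 (SE 1.57). So at GV, NSUN5 stood higher in prepubertal pools and NSUN6 and NSUN7 lower.

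Among the pseudouridine synthases, PUS7L read 5.56, 7.31 and 0.63 in prepubertal MII pools and 7.94, 8.90 and 8.21 in prepubertal GV pools. In adult pools it read 1.29, 6.31 and 7.19 at MII and 9.37, 7.66 and 7.95 at GV. The stages did not overlap at either age, and the MII pools spread widely. Over 12 arrays the difference was -3.85 in prepubertal donors (SE 1.79, unadjusted p 0.0442, adjusted p 0.999) and -3.39 in adults (SE 1.79, unadjusted p 0.0729). Over the 9 arrays it was -4.59 (SE 2.24, unadjusted p 0.0587) and -2.87 (SE 2.04, unadjusted p 0.181).

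PUS1 stood at 5.81, 7.39 and 7.59 in prepubertal GV pools and 4.67, 5.12 and 3.60 in adult GV pools. These ages did not overlap, and the difference was 2.47 over 12 arrays (SE 1.53, unadjusted p 0.124) and 3.13 over 9 (SE 1.80, unadjusted p 0.104). PUS7, another pseudouridine synthase, lay on the other side, with 8.82, 8.80 and 2.47 in GV pools of prepubertal donors and 10.37, 5.75 and 6.90 in those of adults. The PUS7 values overlapped, and the difference was -0.98 over 12 arrays (SE 2.01) and -0.69 over 9 (SE 2.43).

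TSEN15, a subunit of the endonuclease that removes tRNA introns, read 10.62, 10.83 and 10.64 in prepubertal GV pools and 6.68, 9.76 and 10.25 in those of adults, a difference of 1.80 over 12 arrays (SE 1.17, unadjusted p 0.142) and 0.73 over 9 (SE 1.06). The ages did not overlap, and the lowest adult value was that of the array without an oocyte profile. TSEN54, a structural subunit of the same endonuclease, read 6.99, 6.45 and 3.75 in GV pools of prepubertal donors and 9.52, 6.43 and 3.53 in those of adults. Its ages overlapped, with a difference of -0.76 over 12 arrays (SE 1.69) and 0.12 over 9 (SE 1.92). The TSEN54 mean was 5.68 over 12 arrays but 4.89 over the 9, under the filter of 5.57.

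The 9 kept TRMT methyltransferases gave no member with an unadjusted p under 0.05 in any comparison or fit. Their differences between ages at GV ran from -0.99 to 2.25 over the 9 arrays, with 6 of 9 higher in prepubertal pools. In adult maturation they ran from -2.23 to 2.93 over the 9 arrays, with 4 of 9 higher at MII.

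Counted over the list, the adult maturation comparison had the most members past an unadjusted p of 0.05. Over 12 arrays no member passed the adjusted test, and none of the 14409 probe sets did (0%). The 5 members with an unadjusted p under 0.05 were CARS2, EPRS1, IARS1, TRMU and TRNT1, or 5 of 47 where 7.93% of all probe sets reached it. In 4 members (CARS2, EPRS1, IARS1 and PUS7L) the stages did not overlap, against 15.3% of probe sets. In the fit over the 9 arrays RARS1 was the member past the adjusted threshold, which 0.118% of probe sets reached (17 probe sets, 7 higher and 10 lower at MII). There 6 members had an unadjusted p under 0.05 (11.4% of probe sets) and 13 did not overlap (28.0%). The median difference of the 47 was -0.09 over 12 arrays, against -0.10 for all kept probe sets, and -0.15 over 9, against 0.05. Without MII adult replicate 3 (8 arrays) the median of the 47 was 0.77.

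In prepubertal maturation 2 members had an unadjusted p under 0.05 over 12 arrays, CARS2 and PUS7L, where 3.41% of probe sets reached it, and none passed the adjusted test (0% of probe sets). Stages did not overlap in 4 members (KARS1, NSUN5, PUS7L and RARS1), against 9.72% of probe sets. In the fit over the 9 arrays the 3 members with an unadjusted p under 0.05 were AARS1, NSUN7 and RARS1 (6.99% of probe sets), 16 members did not overlap (40.2%), and 0% of probe sets passed the adjusted test. The members' median difference was -0.17 over 12 arrays, against -0.29 for all kept probe sets, and -0.22 over 9, against -0.14. With same-numbered arrays as pairs (replicate block), 4 members had an unadjusted p under 0.05 over the 6 arrays of the groups compared (8.51%), where 10.1% of all probe sets did in the same fit, and none passed the adjusted test (0% of probe sets). The 4 were RARS1, CARS2 (-3.92, SE 1.31, unadjusted p 0.00783), PUS7L (-3.85, SE 1.45, unadjusted p 0.0164) and QARS1, the glutaminyl-tRNA synthetase, which is named for this count after its values were seen. QARS1 differed by -0.08, -4.13 and -4.22 in the 3 pairs and by -2.81 in the fit (SE 1.19, unadjusted p 0.0297).

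The maturation differences had the same sign at both ages in 29 of the 47 members over the 9 arrays (61.7%), against 62.5% of all kept probe sets, and in 33 over 12 arrays (70.2%), against 65.7%. The ages share no arrays in this comparison. No member had an interaction with an unadjusted p under 0.05 in either fit, where 1.21% of probe sets did over 12 arrays and 3.06% over 9, and 0% passed the adjusted test.

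**Figure D4:**
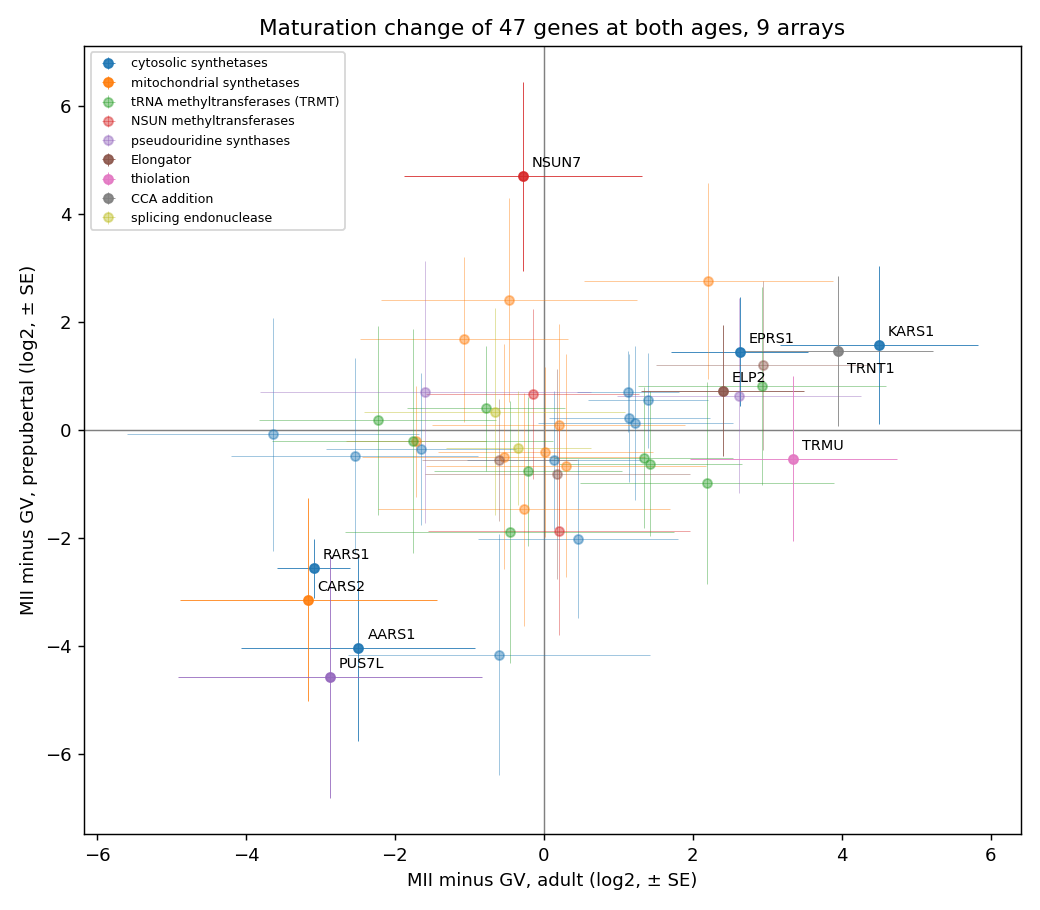
MII minus GV difference in prepubertal donors (vertical, log2) against that in adults (horizontal, log2) for the 47 kept members over the 9 arrays, with bars of 1 SE and colours by role. RARS1 lies at -2.57 and -3.09 with the shortest bars, and KARS1, EPRS1 and TRNT1 are positive at both ages.

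Between ages at GV, 30 of the 47 members were higher in prepubertal than in adult pools over 12 arrays (63.8%, against 57.6% of all kept probe sets). In the 9 arrays it was 34 (72.3%, against 57.0%). The median difference was 0.39 over 12 arrays, against 0.25 for all kept probe sets, and 0.82 over 9, against 0.23. No test was made on these medians. No member passed the adjusted test in either fit (0% of probe sets in both). EPRS1 and TRMU had an unadjusted p under 0.05 over 12 arrays, where 2.51% of probe sets did, and the ages did not overlap in 4 members (NSUN5, PUS1, TRMU and TSEN15), against 5.68%. Over the 9 arrays KARS1, NSUN7 and TRMU had an unadjusted p under 0.05 (4.64% of probe sets), and 15 members did not overlap (27.3%).

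EPRS1 was 2.24 higher in prepubertal GV pools over 12 arrays (SE 1.05, unadjusted p 0.0464, adjusted p 1) and 1.64 higher over 9 (SE 1.01, unadjusted p 0.126). KARS1 was 3.38 higher over the 9 arrays (SE 1.46, unadjusted p 0.0358, adjusted p 1) and 1.64 higher over 12 (SE 1.57). For both genes the adult GV mean was the lowest of the 4 group means in the 9 arrays. RARS1 differed between ages at GV by 0.02 (SE 0.54, interval -1.12 to 1.17) over the 9 arrays and by 0.73 (SE 1.34) over 12. The summed signals of the cumulus and granulosa markers in these GV pools were 94.86 to 129.90 in prepubertal and 101.76 to 117.53 in adult pools, ranges that overlap, and none of the 20 genes was at the floor of 0. Their part in the age differences was not tested.

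At MII, 28 of the 47 members were higher in prepubertal pools over 12 arrays (59.6%, against 49.4% of kept probe sets) and 32 over 9 (68.1%, against 52.3%). The median difference was 0.38, against -0.02, and 0.45, against 0.07. Without MII adult replicate 3 (8 arrays) the members' median turned to -0.26. No member passed the adjusted test in either fit (0% of probe sets in both). Over 12 arrays no member had an unadjusted p under 0.05, where 2.66% of probe sets did, and the ages did not overlap in ELP2 and IARS1, against 9.96% of probe sets. In the 9 arrays AARS1 had an unadjusted p under 0.05 (2.56% of probe sets), and 6 members did not overlap (19.1%).

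AARS1 was lower in prepubertal MII pools, with a difference of -3.57 over the 9 arrays (SE 1.57, unadjusted p 0.0380, adjusted p 1) and of -1.66 over 12 (SE 1.70, unadjusted p 0.340). Its prepubertal MII pools with an oocyte profile read 1.87 and 2.12, low on the scale. The 12-array difference was -0.64 without MII prepubertal replicate 2, -0.77 without MII prepubertal replicate 3 and -3.57 without MII prepubertal replicate 1. IARS1 was lower there too, with a difference of -1.32 over the 9 arrays (SE 0.80, unadjusted p 0.121) and -1.22 over 12 (SE 1.14), and its prepubertal MII values of 10.38 to 10.77 lay below the adult ones of 11.62 to 11.96 on all arrays. RARS1 differed by 0.54 over the 9 arrays (SE 0.49, unadjusted p 0.287) and by 0.22 over 12 (SE 1.34). Of the 10 mitochondrial synthetases, 9 were higher in prepubertal MII pools over the 9 arrays (median difference 0.74) and 7 over 12 (median difference 0.75). None had an unadjusted p under 0.05. The count over the 9 arrays depends on MII adult replicate 3, where FARS2, HARS2, TARS2 and WARS2 read 4.41, 3.21, 2.73 and 3.01. Without that array these genes turned to lower in prepubertal MII pools.

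**Figure D5:**
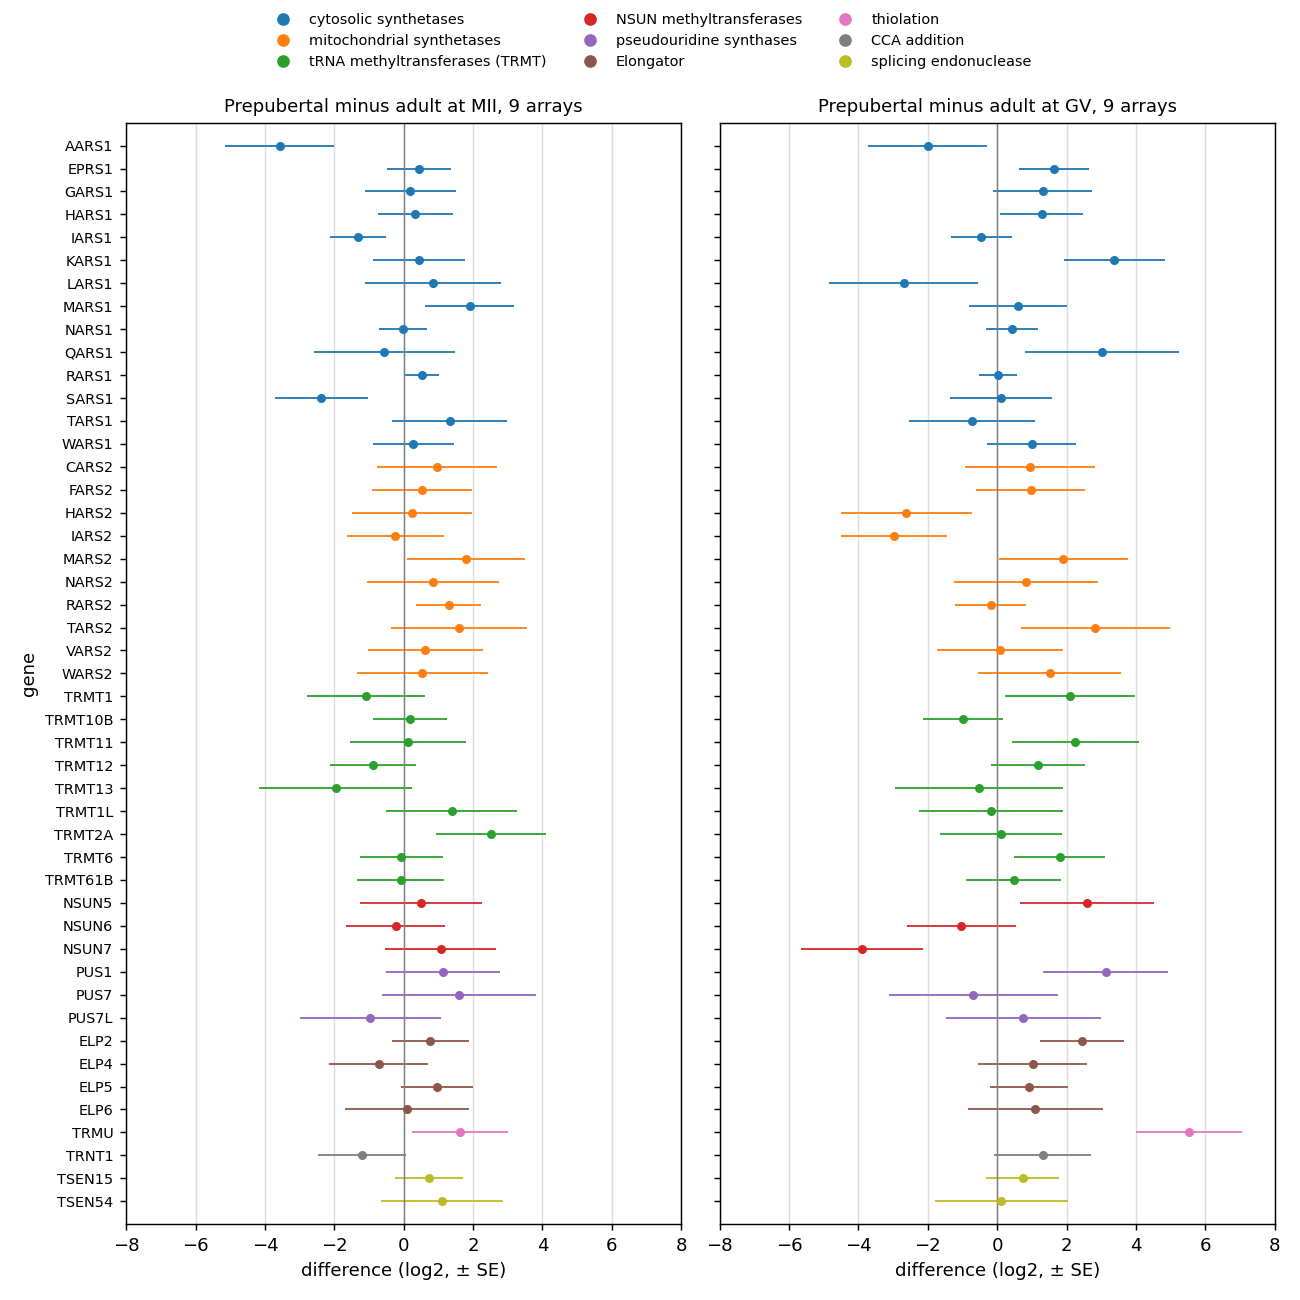
Prepubertal minus adult difference (log2) of each kept member over the 9 arrays, at MII (left) and at GV (right), with bars of 1 SE and colours by role. TRMU at GV lies farthest right at 5.52, NSUN7 at GV farthest left at -3.90.

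A further 86 genes of tRNA biology were listed as neighbours of the members, from thiolation and export to RNA polymerase III. Of these, 63 were on the array and 52 passed the filter, and none passed the adjusted test in any comparison. Their median differences between ages at GV were 0.77 over 12 arrays and 0.68 over 9. Over the 9 arrays, an unadjusted p under 0.05 was reached by 2 of the 52 between ages at GV, where 4.64% of all probe sets did, and by 1 at MII (2.56%). It was reached by 3 in adult maturation (11.4%), all higher at MII, and by 4 in prepubertal maturation (6.99%), 1 higher and 3 lower at MII. In the interaction 2 reached it (3.06%). Over 12 arrays the counts were 2 at GV (2.51%), 0 at MII (2.66%), 2 in adult maturation (7.93%), 2 in prepubertal maturation (3.41%) and 0 in the interaction (1.21%).

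GTPBP3, which modifies the same mitochondrial wobble uridine that TRMU thiolates, had the largest prepubertal maturation difference among them. It read 9.59, 0.52 and 0.31 in prepubertal MII pools and 10.44, 10.52 and 9.78 in prepubertal GV pools. The MII pools with an oocyte profile were near the floor of the scale, and the pool at 9.59 was the array without one. In adult pools GTPBP3 read 5.95, 5.02 and 3.63 at MII and 9.66, 7.54 and 2.31 at GV. The prepubertal difference over the 9 arrays was -9.74 (SE 1.94, unadjusted p 0.000166, adjusted p 0.536) and the interaction -9.68 (SE 2.63, unadjusted p 0.00231, adjusted p 0.999). Over 12 arrays the prepubertal difference was -6.77 (SE 2.17, unadjusted p 0.00552) and the interaction -5.14 (SE 3.06, unadjusted p 0.110). At GV, GTPBP3 was 5.23 higher in prepubertal than in adult pools over the 9 arrays (SE 1.94, unadjusted p 0.0171) and 3.74 higher over 12 (SE 2.17, unadjusted p 0.100). The first TRMU probe set was higher there too, but the second differed by 0.39 over the 9 arrays (SE 1.66) and by -0.27 over 12. At MII the age difference of GTPBP3 was -4.46 over the 9 arrays (SE 1.78, unadjusted p 0.0243) and -1.40 over 12 (SE 2.17), while that of TRMU was 1.62 (SE 1.39) and 1.55.

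TYW1, which makes part of the wybutosine base next to the anticodon of phenylalanine tRNA, read 7.88, 8.54 and 11.36 in adult MII pools and 8.19, 4.82 and 2.46 in adult GV pools. It differed by 5.61 over the 9 arrays (SE 1.47, unadjusted p 0.00171, adjusted p 0.156) and by 4.10 over 12 (SE 1.84, unadjusted p 0.0379). PTRH2, a peptidyl-tRNA hydrolase, differed in adults by 4.13 over the 9 arrays (SE 1.54, unadjusted p 0.0174) and by 3.35 over 12 (SE 1.58, unadjusted p 0.0470). Between ages at GV, PTRH2 was 3.52 higher in prepubertal pools over 12 arrays (SE 1.58, unadjusted p 0.0377) and 2.95 higher over 9 (SE 1.69, unadjusted p 0.101). ALKBH8, which works on wobble uridine side chains that Elongator begins, differed in adult maturation by 3.76 over the 9 arrays (SE 1.49, unadjusted p 0.0238) but by 1.77 over 12 (SE 1.66, unadjusted p 0.299). It read 6.31, 7.58 and 6.37 in adult MII pools and 8.95, 1.99 and 4.00 in adult GV pools, the high GV value being that of the array without an oocyte profile.

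The subunit genes of RNA polymerase III, which transcribes tRNA genes, included 3 that the rule named. POLR3K differed in prepubertal maturation by -4.32 over the 9 arrays (SE 1.41, unadjusted p 0.00806) and -3.64 over 12 (SE 1.26, unadjusted p 0.00927), with an interaction of -4.13 over the 9 (SE 1.91, unadjusted p 0.0475). POLR3F differed there by -4.44 over the 9 arrays (SE 2.00, unadjusted p 0.0423) and -3.47 over 12 (SE 1.94, unadjusted p 0.0903). POLR3GL was higher in prepubertal than in adult pools at GV, by 4.44 over the 9 arrays (SE 1.66, unadjusted p 0.0173) and 3.88 over 12 (SE 1.56, unadjusted p 0.0223). ALKBH1, a demethylase that acts on tRNA among other substrates, ran the other way in prepubertal maturation, with 3.96 over the 9 arrays (SE 1.70, unadjusted p 0.0351) and 2.37 over 12 (SE 1.50, unadjusted p 0.131).

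The 10 members under the filter were AARS2, ADAT1, CARS1, ELP3, LARS2, NSUN4, SARS2, TRMT10C, TRMT61A and YARS1. Their means over the 12 arrays were at or below the filter, which does not show that they are absent, since no detection calls were among the values used. The lowest member value was 0, for LARS2 in MII prepubertal replicate 2. ELP3, the catalytic subunit of Elongator, read 0.42 to 5.83 in the 9 arrays, and YARS1, the cytosolic tyrosyl-tRNA synthetase, 0.56 to 5.98.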

How the data were processed

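The authors deposited log2 signals per probe set. MAS5 is named for them, without a version, per the submitters' processing notes. All arrays shared a linear mean of 500 once 2% was trimmed at each end, and no further scaling was applied. Of 24128 probe sets, 112 controls were left out, and 14409 with a mean above the 40th percentile (5.57) were kept. No count or depth applies to arrays; their number limits the precision.

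Symbols came from the array annotation. Of 24016 probe sets, 13292 had 1 symbol, 86 several and 10638 none. The 57 members had 72 probe sets, 58 of them kept, and 12 members had several.

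A model of 4 group means was fitted in R 4.3.3 with limma 3.58.1 and an intensity trend, over 12 arrays (8 residual degrees of freedom) and over 9 (5 residual degrees of freedom). The 9 were those whose oocyte marker median exceeded the array median by 2 log2 units or more. The Benjamini-Hochberg adjustment ran over all 14409 probe sets, threshold 0.05, in 5 comparisons, the fifth being the interaction. The steps were tested on simulated data. Members, lists and alternatives were chosen with earlier results of these data known.

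Named were RARS1, TRMU, members past the adjusted threshold, up to 6 higher and 6 lower members per comparison and fit with the smallest unadjusted p under 0.05, members whose probe sets opposed each other at that level (none did), and members of role groups with 5 or fewer kept members. Genes outside the members followed the same rule of p. Mitochondrial synthetases whose direction turned without MII adult replicate 3 were also named, after their values were seen.

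As a check of pairing, each array's deviations from its group mean were correlated between same-numbered arrays. Between MII and GV in prepubertal donors the 3 correlations were 0.609, 0.149 and 0.306, all over 0.1. The largest was that of the replicates 1, which both lacked the oocyte profile. MII replicate 2 correlated most with GV replicate 3. Deviations from a group mean cancel within the group, so a profile shared by the replicates 1 can raise the other correlations. The check therefore cannot tell pairs from that profile, and no label names pairs. The replicate block is an alternative. The printed values come from the fit without pairs unless a replicate block is named. In the other comparisons at least 1 correlation was lower.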

Additional observations from a re-analysis of the deposited data

How the results depend on the processing

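The count of members past the adjusted threshold was 0 in both age comparisons, in prepubertal maturation and in the interaction under every alternative run. In adult maturation it was 0 over 12 arrays and 1 (RARS1) over the 9 arrays, over 8 arrays (also without MII adult replicate 3), over 9 arrays after quantile normalization, with the replicate block over 9 arrays, and with the filter set on the 9 arrays (added after seeing the data). RARS1 in adults over the 9 arrays lost the call over 12 arrays (-1.59), after median centring of the 9 arrays (-2.98) and with its other probe set (-1.85), and gave -3.54 to -2.63 with 1 array left out; with the replicate block it was -3.09 (adjusted p 0.0456), over 8 arrays -3.25 (0.01) and after quantile normalization -2.99 (0.0179). Array weights over 12 arrays gave -2.96 (0.115).

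The interaction of RARS1, -0.50 over 12 arrays, turned sign over 9 arrays (0.52, also with the filter set on them), over 8 (0.68), with quantile normalization (0.41), median centring (1.22) or the replicate block (0.53) over 9, and with array weights (0.74); with 1 array left out it ran from -1.48 to 0.99. Its age difference at GV turned to -0.31 (9 arrays, median centring) and -0.20 (array weights), and ran from -0.77 to 1.70 with 1 array left out, and at MII from -0.01 to 0.54. With 1 array left out, KARS1 between ages at GV ran from -0.04 to 3.79 and ELP2 in adult maturation from -0.19 to 2.40. TRMU in prepubertal maturation turned to 0.48 after median centring and 0.26 after median centring of 9 arrays. The causes were not tested, apart from the centring, which adds a constant to every gene.

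The members' median signal on an array had a pooled SD of 0.55 within groups. The members' median difference was classed as moved where it shifted by that much or more. It moved beyond that between ages at MII to -0.26 over 8 arrays; in adult maturation to 0.77 over 8 arrays, 0.70 after median centring and 0.56 with array weights, and from -0.75 to 0.44 with 1 array left out; and in prepubertal maturation to 0.74 after median centring and 0.58 after median centring of 9 arrays. Counts of members with an unadjusted p under 0.05 ran over the alternatives from 1 to 7 between ages at GV, 0 to 1 at MII, 2 to 11 in adult maturation, 0 to 6 in prepubertal maturation and 0 to 2 in the interaction. With the replicate block over the compared groups, the prepubertal maturation count was 4 rather than 2, and its adjusted count stayed 0. In adult maturation, where same-numbered arrays did not all correlate positively, a fit of only the compared groups gave 2 rather than 5, with the block and without it. In the interaction over 9 arrays the block gave 2 members with an unadjusted p under 0.05 rather than 0, and the adjusted count stayed 0. Against the fit of the same arrays without it, the block changed no adjusted count of members. In all, 1051 of the recomputed values were classed as the same, 63 as moved, 10 as weaker, 5 as stronger and 16 as reversed. For a gene, the same meant the same direction and side of the adjusted threshold. For a count it meant a value close to the main one in ratio, and for a median a shift under 0.55. A median could thus change sign within that class. The adult maturation median kept its sign in 20 of 29 alternatives. The signals carry no detection calls, so low members are limited by background that was not measured here.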
